A study of Homo sapiens with 4 samples.

Results

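The locus on human chromosome 13 from COL4A1 to ING1 (hg19, chr13:110700000-111500000, 800 kb) was examined in H3K27ac HiChIP libraries of 4 untreated colorectal cancer cell lines. HiChIP ligates DNA ends that lie close together in fixed nuclei and then enriches the fragments that carry a histone mark, here acetylated lysine 27 of histone H3, a mark of active promoters and enhancers. The lines were LS513 (labelled colorectal carcinoma, Dukes' type C), HCT116 (colorectal carcinoma), SW620 (colorectal adenocarcinoma, Dukes' type C) and SW480 (colorectal adenocarcinoma, Dukes' type B). SW620 and SW480 are known as lines from the same patient, SW480 from the primary tumour and SW620 from a lymph node metastasis. Each line had 1 library and no line was treated, so no value has a replicate check and no test between lines was made. The locus was chosen from measured values of these same libraries, so its levels are a description. All loops and all same-anchor pairs with an anchor midpoint in the locus are included. They were 91 of 74401 filtered loops in LS513, 42 of 40696 in HCT116, 90 of 62104 in SW620 and 8 of 7024 in SW480. Same-anchor pairs, in which both ends fell in the same anchor, were 13 of 21099 in LS513, 13 of 20977 in HCT116, 15 of 22139 in SW620 and 8 of 8572 in SW480.

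COL4A1 and COL4A2 encode the alpha chains of the most widespread form of collagen IV, the network-forming collagen of basement membranes, and are read in opposite directions from neighbouring starts. RAB20 encodes a small GTPase of endosomes and phagosomes. CARS2 encodes the mitochondrial cysteinyl-tRNA synthetase, and ING1 a PHD finger protein of a histone deacetylase complex. In the RefSeq gene order of GRCh38.p14 the run was COL4A1, COL4A2, RAB20, NAXD, CARS2 and ING1. An active promoter or enhancer usually carries H3K27ac over its own anchor, and a loop joins a pair of such anchors. In hg19, the shared start of COL4A1 and COL4A2 was placed at 110.959 Mb, the RAB20 start at 111.214 Mb, the CARS2 start at 111.358 Mb and the ING1 start at 111.365 Mb. Exons, introns and UTRs under the anchors were not assigned, because no hg19 annotation was used.

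The RAB20, CARS2 and ING1 starts lay in anchors of 3 lines, while the collagen IV start lay in none. Promoter sequences are given for these genes as a description, except for RAB20, which had 0 entries in the promoter table. Whether promoter letters relate to the anchors was not tested. The letters come from RefSeq (GRCh38.p14) and run 5′ to 3′ on the strand of the named gene, with the COL4A1 strand for the shared promoter. Capitals mark a GC box (GGGCGG or its reverse complement CCGCCC) or a CCAAT box (CCAAT or ATTGG). The sequence between the COL4A1 and COL4A2 starts was chr13:110307158-110307283, the CARS2 sequence chr13:110706117-110706366 (both minus strand) and the ING1 sequence chr13:110712373-110712622 (plus strand).
COL4A1 and COL4A2: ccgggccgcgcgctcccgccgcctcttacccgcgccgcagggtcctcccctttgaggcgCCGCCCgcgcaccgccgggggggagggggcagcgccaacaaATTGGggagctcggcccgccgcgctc
CARS2: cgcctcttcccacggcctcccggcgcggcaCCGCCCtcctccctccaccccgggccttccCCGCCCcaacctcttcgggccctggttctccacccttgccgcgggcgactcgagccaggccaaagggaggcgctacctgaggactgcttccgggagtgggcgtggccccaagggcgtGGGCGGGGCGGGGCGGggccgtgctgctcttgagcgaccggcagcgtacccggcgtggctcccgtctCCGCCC
ING1: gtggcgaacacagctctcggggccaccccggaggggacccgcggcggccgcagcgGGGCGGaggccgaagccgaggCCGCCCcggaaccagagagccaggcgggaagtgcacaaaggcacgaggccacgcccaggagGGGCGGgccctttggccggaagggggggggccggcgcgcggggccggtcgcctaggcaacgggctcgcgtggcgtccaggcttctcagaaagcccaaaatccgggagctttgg
The shared collagen IV promoter spanned 126 bases with 20 CpG dinucleotides, 1 GC box and 1 CCAAT box. Among windows of the same length upstream of 34796 RefSeq promoter starts, 94.2% held fewer CpG, 34.6% held a GC box and 21.1% a CCAAT box. The CARS2 sequence held 28 CpG and 6 GC boxes, some of which overlapped, and the ING1 sequence held 29 CpG and 3 GC boxes. No CCAAT box was matched in either. Of windows of 250 bases, 84.1% held fewer CpG than CARS2, 85.9% fewer than ING1, 42.6% held a GC box and 32.0% a CCAAT box. CARS2 has 2 and ING1 has 4 entries in the promoter table, and the one with most CpG is shown, a choice that favours a high CpG rank for these genes. These matches describe letters and say nothing of factors bound in these cells.

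The libraries differed widely in depth. Filtered loops, whose anchor midpoints lay between 5 kb and 2 Mb apart, held 222113 paired-end tags (PETs) in LS513, 81579 in HCT116, 152421 in SW620 and 13885 in SW480. Same-anchor pairs held 1386645, 863012, 844521 and 130508 PETs in the same order. The share of PETs on chromosome 13 also differed: 2.60% of filtered PETs in LS513, 1.19% in HCT116, 1.59% in SW620 and 3.02% in SW480, and 3.34%, 1.52%, 1.79% and 2.31% of same-anchor PETs. Levels are therefore given as normalised PETs, that is PETs per 1000000 PETs of the same kind (filtered or same-anchor) in the library, and, where lines are compared, also scaled to chromosome 13. LS513 and HCT116 were deposited on the same 13 anchors in the locus. SW620 and SW480 each had anchors of their own. Ranges in brackets, here called counting ranges, are exact 95% intervals and cover counting error only. They treat PETs, which carry no molecular identifiers, as independent.

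Among the deposited anchors, the one with most same-anchor PETs did not lie at the collagen IV start in any line. No anchor of any line came within 10 kb of that start, whatever kind of pair was counted. The nearest anchor to the left ended 166 kb away in LS513, HCT116 and SW620 and 179 kb away in SW480. The nearest to the right began 133 kb away in LS513 and HCT116, 99.6 kb in SW620 and 102 kb in SW480. The stretch without an anchor was thus 299.6 kb long in LS513 and HCT116, 266 kb in SW620 and 281 kb in SW480. Loop PETs at the collagen IV start were 0 in all 4 libraries. With no anchor there, no loop PET could be counted, so these values of 0 set no limit on contact. For scale, 3 counts are 13.5 PETs per 1000000 filtered PETs in LS513, 36.8 in HCT116, 19.7 in SW620 and 216 in SW480. How the anchors were defined is not stated in the labels, so a missing anchor says that none was deposited there and does not give the level of acetylation. The anchors and loops with most PETs in LS513, HCT116 and SW620 lay between the collagen IV start and the ING1 anchor, mostly around RAB20. Others described below, among them the strongest SW480 loop, lay left of the collagen IV start or right of ING1.

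**Figure D1:**
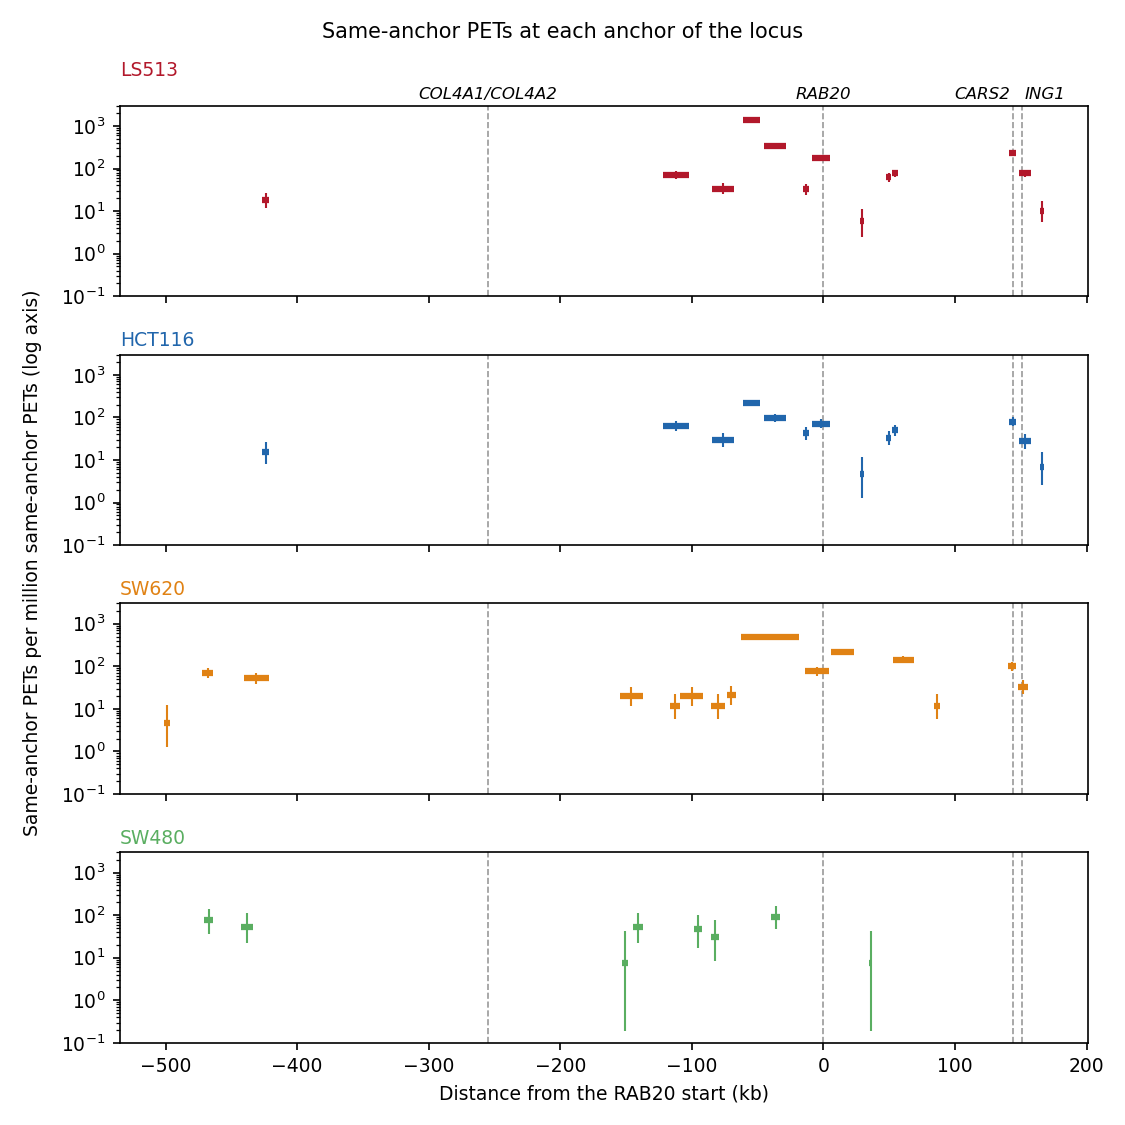
Same-anchor PETs per 1000000 same-anchor PETs of the library (vertical log axis) at each anchor of the locus, against distance from the RAB20 start in kb, for LS513, HCT116, SW620 and SW480 from top to bottom. Horizontal bars span the anchor, vertical lines are exact Poisson 95% intervals (counting error), and dashed lines mark gene starts. No bar lies at the COL4A1/COL4A2 start in any line, and the highest LS513 bar (1375) lies left of RAB20.

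The leading anchor of LS513 lay at 111153076 to 111165630 (12.6 kb), with its nearer edge 48.4 kb left of the RAB20 start. It held 1907 same-anchor PETs in LS513, or 1375 normalised PETs, and 191 PETs in HCT116, or 221 normalised PETs. By this count it was rank 3 of 21099 anchors in LS513, and rank 608 of 20977 in HCT116. It held 54.8% of the locus's same-anchor PETs in LS513 and 29.8% in HCT116. The ratio of LS513 to HCT116 was 6.21 (5.35 to 7.25), and 2.83 (2.43 to 3.30) when scaled to chromosome 13.

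The second anchor, at 111168651 to 111185366 (16.7 kb), lay between the leading anchor and RAB20. It held 467 PETs in LS513 and 83 in HCT116, a ratio of 3.50 (2.77 to 4.48), or 1.59 (1.26 to 2.04) scaled to chromosome 13. The anchor over the RAB20 start, at 111205589 to 111219094, held 245 PETs in LS513 and 62 in HCT116, a ratio of 2.46 (1.85 to 3.30). That ratio was 1.12 (0.843 to 1.50) with the chromosome scaling. The ratio of LS513 to HCT116 was thus larger at the leading anchor than at the RAB20 start. The leading anchor was picked as the one with most PETs in LS513, so this difference is a description only.

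The starts of CARS2 and ING1 lay in adjacent anchors. The CARS2 anchor, at 111355448 to 111360771, held 321 PETs in LS513 and 69 in HCT116, a ratio of 2.90 (2.23 to 3.81). The ING1 anchor, at 111362680 to 111371576, held 109 PETs in LS513 and 24 in HCT116, a ratio of 2.83 (1.80 to 4.60). Both lay above the chromosome's own ratio of 2.20 (2.16 to 2.24) in same-anchor PETs, but for ING1 its 95% range spanned it. With the chromosome as the scale they were 1.32 (1.01 to 1.73) for CARS2 and 1.29 (0.820 to 2.09) for ING1.

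At the other 8 anchors the ratio of LS513 to HCT116 lay nearer to 1 per library PETs, and under 1 when scaled to chromosome 13. The anchors at 110787789 to 110792565, 111092164 to 111112523 and 111129640 to 111145989 held 25, 97 and 47 PETs in LS513, against 13, 55 and 26 in HCT116. Their ratios were 1.20, 1.10 and 1.13, and with the chromosome scaling 0.544 (0.268 to 1.16), 0.499 (0.355 to 0.708) and 0.512 (0.310 to 0.860). The small anchor at 111198300 to 111202758, just left of the RAB20 anchor, held 46 PETs in LS513 and 37 in HCT116. The anchors at 111241743, 111261709, 111266064 and 111378568, right of RAB20 and ING1, held 8, 86, 107 and 14 PETs in LS513, against 4, 29, 43 and 6 in HCT116, with ratios from 1.24 to 1.85, or from 0.566 to 0.839 with the chromosome scaling. The small anchor's ratio of 0.774 was the lowest of the 13, and scaled to chromosome 13 it was 0.352 (0.223 to 0.558). That anchor lay between others with ratios of 3.50 and 2.46, so neighbouring anchors differed in their ratios.

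Of the 13 anchors, all with at least 10 PETs in both libraries together, 5 were more than 2-fold higher in LS513 and 0 lower. The same call was made for 9.07% (higher) and 21.9% (lower) of anchors on all chromosomes, and for 42.9% (higher) of those on chromosome 13. The share lower on chromosome 13 at this scale is not given, so the 0 lower cannot be set beside the chromosome. With chromosome 13 scaling 1 of 13 was higher and 2 were lower, against 5.82% and 24.4% of chromosome 13 anchors. The median ratio was 1.55 in the locus, 1.71 on chromosome 13 and 0.849 on all chromosomes. The median anchor of the locus thus lay near that of chromosome 13. The locus was chosen on this contrast, so the counts are a description.

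**Figure D2:**
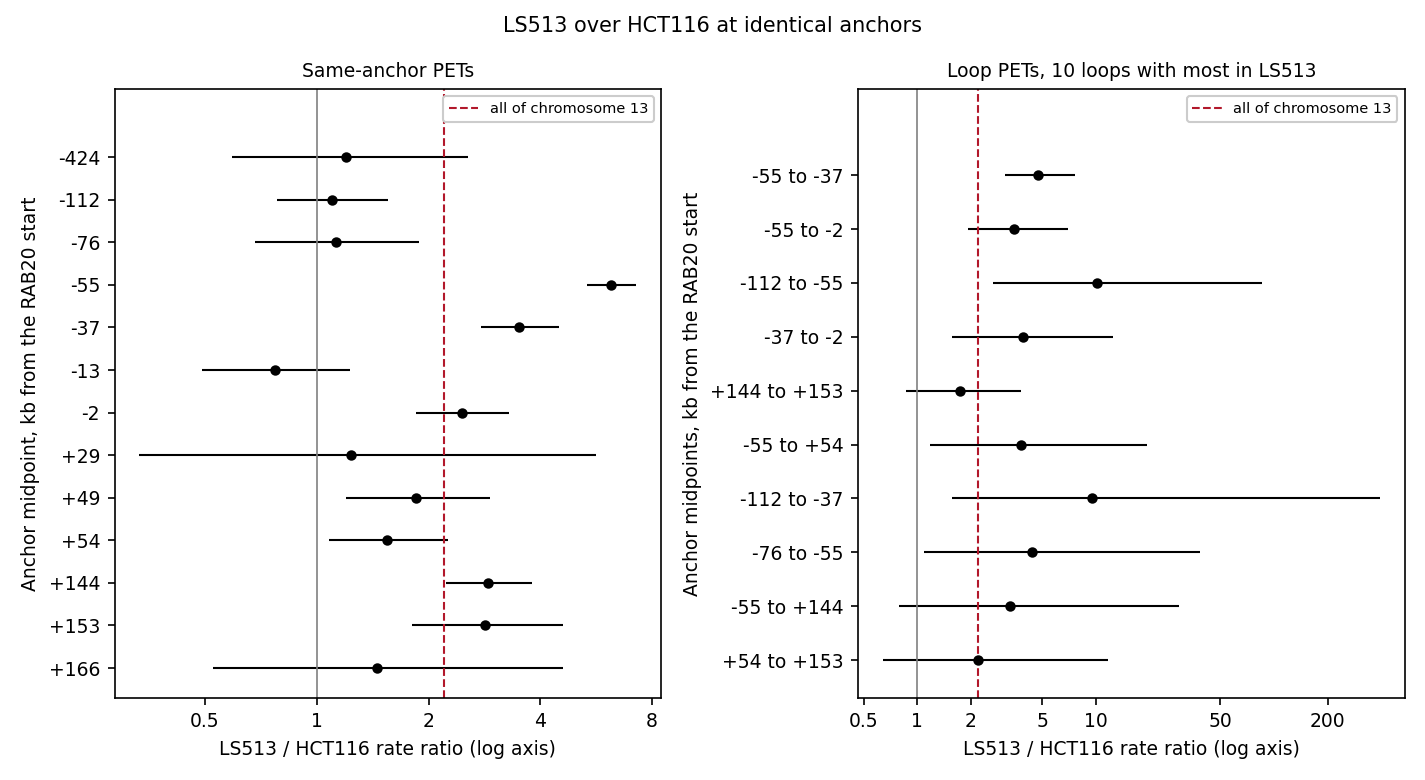
Ratio of LS513 to HCT116 (log axis) at identical anchors, for same-anchor PETs at all 13 anchors (left) and loop PETs at the 10 loops with most PETs in LS513 (right), labelled by anchor midpoints in kb from the RAB20 start. Lines are exact 95% intervals (counting error), and the red dashed line is the ratio for all of chromosome 13 (2.20 on the left, 2.19 on the right). The anchor at -55 kb stands highest on the left with 6.21.

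LS513 had the most loop PETs in the locus for its depth. Loop PETs of the locus were 988 in LS513, 112 in HCT116, 289 in SW620 and 14 in SW480. As normalised PETs these were 4448 (4175 to 4734), 1373 (1130.4 to 1652), 1896 (1684 to 2128) and 1008 (551 to 1692). LS513 was highest, and the counting range of SW480 overlapped those of both HCT116 and SW620. The locus held 17.1% of the chromosome's filtered PETs in LS513, 11.6% in HCT116, 11.9% in SW620 and 3.33% in SW480.

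The ratio of LS513 to HCT116 was 3.24 (2.66 to 3.98) for loops and 3.37 (3.10 to 3.67) for same-anchor PETs. Chromosome 13 as a whole had ratios of 2.19 (2.05 to 2.35) and 2.20 (2.16 to 2.24). With chromosome 13 as the scale, the ratios of the locus were 1.48 (1.21 to 1.81) and 1.53 (1.41 to 1.67). Leaving out the leading anchor, a choice made after the values were seen, brought these to 1.14 (0.859 to 1.53) for loops and 0.986 (0.888 to 1.10) for same-anchor PETs. Both ranges then held 1. These sums join anchors that go both ways on the chromosome's scale, the second anchor above 1 and 3 anchors left of RAB20 below 1, and the anchor left out was the one with the highest ratio. The number of chromosome 13 copies in each line was not measured here, and its part in the ratios was not tested.

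The leading loop joined the leading anchor with the second one, 17.7 kb apart between midpoints. It held 298 PETs in LS513, the most of any filtered loop in that library, and 23 PETs in HCT116, where its rank was 138. These were 1342 and 282 normalised PETs, a ratio of 4.76 (3.11 to 7.62), or 2.17 (1.42 to 3.47) scaled to chromosome 13. Loops at the leading anchor held 601 of 988 loop PETs in LS513 (60.8%) and 55 of 112 in HCT116 (49.1%). By loop PETs it was the strongest anchor of the locus in both lines. By number of loops the second anchor came first in LS513, with 20 loops against 17, and the leading anchor in HCT116, with 14 loops against 7 at the second.

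Its loop to the RAB20 start spanned 53.0 kb. It held 114 PETs in LS513 and 12 in HCT116, or 513 and 147 normalised PETs, a ratio of 3.49 (1.92 to 6.95), or 1.59 (0.876 to 3.17) scaled to chromosome 13. The second anchor's loop to the RAB20 start held 53 PETs in LS513 and 5 in HCT116, a ratio of 3.89 (1.57 to 12.5), or 1.77 (0.714 to 5.69) on that scale. Both scaled ranges held 1. The leading anchor's loop to the anchor at 111092164 to 111112523, on its far side from RAB20, held 55 PETs in LS513 and 2 in HCT116. Its ratio was 10.1 (2.67 to 85.5), or 4.60 (1.22 to 39.0) scaled, wide because of the low HCT116 count.

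At the other end, the loop between the CARS2 and ING1 starts (9.02 kb) held 47 PETs in LS513 and 10 in HCT116, a ratio of 1.73 (0.861 to 3.83). On the chromosome's own scale it was 0.787, so the direction turned with the scaling. The leading anchor reached the CARS2 start 199 kb away with 18 PETs in LS513 and 2 in HCT116. The ratio of that loop was 3.31 (0.791 to 29.4), or 1.51 (0.361 to 13.4) scaled to chromosome 13, and both ranges held 1. The ING1 start's loop to the anchor at 111266064 to 111270749 held 18 PETs in LS513 and 3 in HCT116, a ratio of 2.20 (0.643 to 11.7), or 1.00 (0.293 to 5.32) scaled to chromosome 13. The loop from the RAB20 anchor to its small left neighbour at 111198300 to 111202758 held 14 PETs in LS513 and 7 in HCT116, a ratio of 0.735 (0.277 to 2.15), or 0.335 (0.126 to 0.980) scaled.

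**Figure D3:**
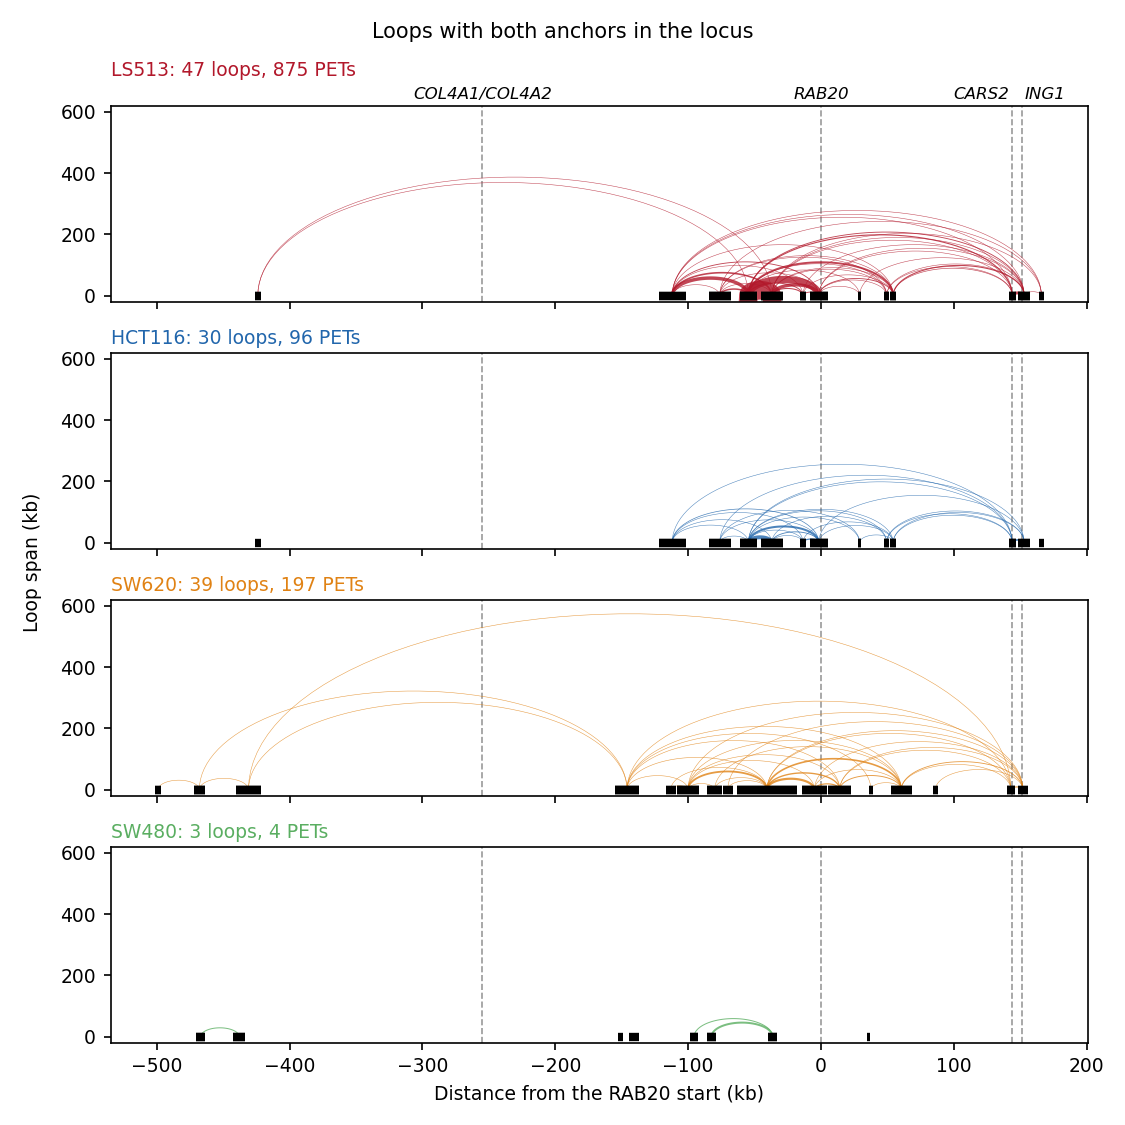
Filtered loops with both anchors in the locus, drawn as arcs whose height is the span between anchor midpoints in kb and whose width grows with PETs per 1000000 filtered PETs, for LS513, HCT116, SW620 and SW480 from top to bottom. Black bars are anchors and dashed lines gene starts. Arcs pass over the COL4A1/COL4A2 start in LS513 and SW620, but no arc ends there, and the dense arcs lie left of and at RAB20.

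Of 21 loops between identical anchors with at least 10 PETs in both libraries together, 17 were more than 2-fold higher in LS513 and 0 lower. One of the 17 had 10 PETs in LS513 and 0 in HCT116. With a count of 0 set to 3 counts it was not past 2-fold, and 16 were higher. On all chromosomes 26.9% of such loops were called higher and 14.2% lower, and 58.9% were higher on chromosome 13. For loops, too, the share lower on chromosome 13 at library scale is not given. With the 3-count floor 23.3% were higher on all chromosomes and 48.6% on chromosome 13. Relative to chromosome 13, 8 were higher and 1 lower, against 26.7% and 15.8% of the chromosome's loops, and with the floor 7 were higher, against 11.6%. Most of these loops reached 10 PETs through LS513, so the count has no weight beyond a description.

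Loop PETs were also set against the strength of their anchors. Loop ends per 100 same-anchor PETs were 53.5 in the locus in LS513, 32.4 in HCT116, 45.5 in SW620 and 37.5 in SW480. The libraries as a whole had 32.0, 18.9, 36.1 and 21.3. The locus thus had 1.67 times as many loop ends per same-anchor PET as its library in LS513, 1.71 in HCT116, 1.26 in SW620 and 1.76 in SW480. The SW480 value rests on 18 loop ends. Chromosome 13 had 25.0, 14.8, 32.0 and 27.9 in the same order. Beside the chromosome the excess was therefore larger in LS513, HCT116 and SW620, and smaller in SW480. A measure per loop was PETs per 100 of the geometric mean of the same-anchor PETs at both anchors. Its median over the 21 loops was 8.65 in LS513 and 1.95 in HCT116. On chromosome 13 the medians were 8.66 and 5.16, and over all chromosomes 10.6 and 5.55. The 21 loops mostly passed the minimum of 10 PETs through LS513. PETs with both anchors inside the locus were 88.6% of its loop PETs in LS513, 85.7% in HCT116, 68.2% in SW620 and 28.6% in SW480.

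The gene starts differed in how much they took part. Loop PETs at the RAB20 start were 238 in LS513, 35 in HCT116, 52 in SW620 and 0 in SW480. As normalised PETs these were 1072 (939.7 to 1217) in LS513, 429 (299 to 597) in HCT116 and 341 (255 to 447) in SW620. SW480 had no anchor there, so its 0 sets no limit on contact. LS513 stood apart from HCT116 and SW620, whose counting ranges overlapped. Scaled to chromosome 13 the ratio of LS513 to HCT116 at RAB20 was 1.14 (0.796 to 1.67), and that of LS513 to SW620 was 1.92 (1.42 to 2.64).

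Loop PETs at the CARS2 start were 103 in LS513, 21 in HCT116, 28 in SW620 and 0 in SW480. At the ING1 start they were 117, 20, 43 and 0 in the same order. As normalised PETs the ING1 values were 527 in LS513, 245 in HCT116 and 282 in SW620. The order of LS513 over HCT116 turned with scaling to chromosome 13 at both starts, with ratios of 0.821 (0.510 to 1.38) for CARS2 and 0.979 (0.606 to 1.66) for ING1. In SW480 no anchor lay within 2 kb of the RAB20, CARS2 or ING1 starts, the nearest to RAB20 being 32.9 kb away. The SW480 values of 0 at the CARS2 and ING1 starts therefore set no limit on contact either. As normalised PETs the CARS2 values were 464 in LS513, 257 in HCT116 and 184 in SW620.

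**Figure D4:**
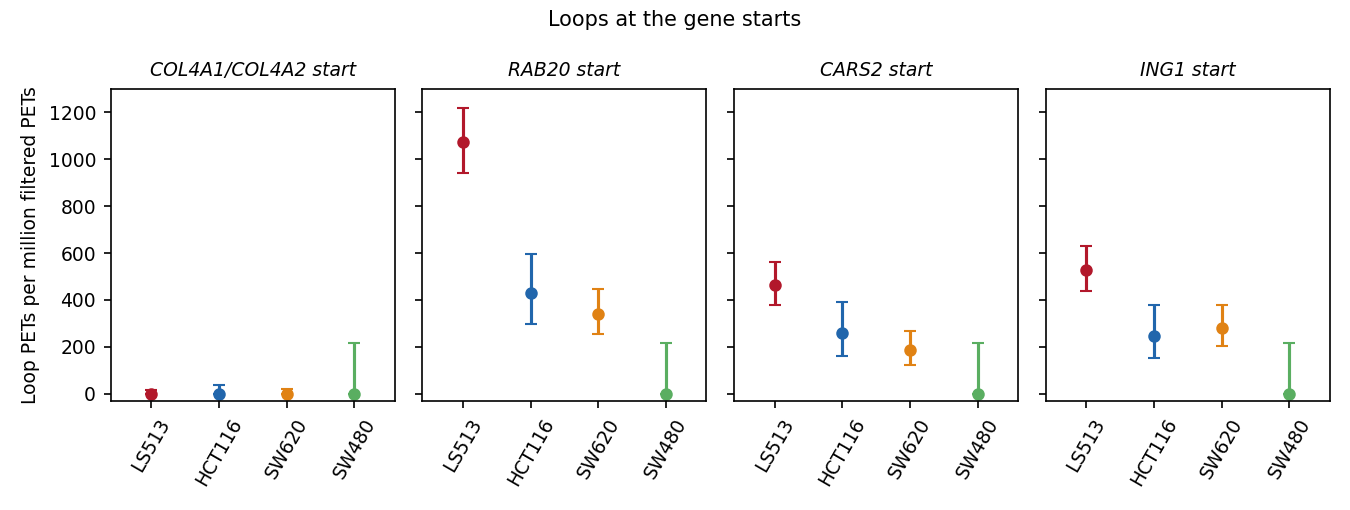
Loop PETs per 1000000 filtered PETs at anchors within 2 kb of each gene start, in LS513, HCT116, SW620 and SW480 from left to right in each panel, with exact Poisson 95% intervals (counting error); at a count of 0 the bar reaches the level of 3 counts. All 4 lines are at 0 at the COL4A1/COL4A2 start, where none had an anchor, and LS513 is highest at RAB20 with 1072. SW480 had no anchor at any of these starts.

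In SW620 the region left of RAB20 was a single wide anchor at 111151140 to 111195715 (44.6 kb) with 402 same-anchor PETs, or 476 normalised PETs (rank 168 of 22139). It covers both leading LS513 anchors, so the leading LS513 loop falls inside it and cannot appear as a loop in SW620. All PETs of deposited anchors within these bounds, same-anchor pairs included, were therefore counted in each library. They were 2672 in LS513, 297 in HCT116, 402 in SW620 and 12 in SW480, or 1627, 311, 396 and 82.3 per 1000000 same-chromosome PETs. The ratio of LS513 to SW620 was 4.11 (3.70 to 4.58), and that of SW620 to HCT116 was 1.27 (1.09 to 1.48). Scaled to all same-chromosome PETs of chromosome 13 they were 2.24 (2.02 to 2.49) and 1.08 (0.925 to 1.26). SW620 over SW480 was 4.81 (2.72 to 9.38), or 6.50 (3.68 to 12.7) on that scale, resting on 12 PETs in SW480. Anchors covered the bounds unequally: all 44.6 kb in SW620, anchors of 12.6 and 16.7 kb in LS513 and HCT116, and 7.14 kb in SW480. PETs outside anchors are not counted, so the ratios that involve SW620 also carry this difference in cover.

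SW620 had 5 anchors that overlapped none of LS513 or HCT116, among them one beside RAB20 and one at the left edge of the locus. The anchor at 111219521 to 111236922, just right of the RAB20 start, held 179 PETs in SW620, or 212 normalised PETs. It looped to the wide anchor with 15 PETs and to the RAB20 anchor with 13. The other 3 anchors without an LS513 or HCT116 partner held 4, 17 and 10 PETs. Another SW620 anchor, at 111266495 to 111282439, overlapped an LS513 anchor, held 121 PETs and looped to the wide anchor with 18. The strongest SW620 loop of the locus joined the wide anchor with the RAB20 start and held 24 PETs, or 157 normalised PETs. The next joined the wide anchor with 111105351 to 111122500 and held 20 PETs. The CARS2 and ING1 starts were joined by 12 PETs in SW620, and the anchor at 111266495 joined ING1 with 9 PETs and CARS2 with 5. RAB20 was contacted mostly from the left in LS513 and HCT116. In SW620 the sides were closer, with 24 PETs from the wide anchor on the left and 13 from the anchor beside RAB20 on the right. LS513 and HCT116 had no anchor at that right-hand place, their next one beginning 27.7 kb from the RAB20 start. A contact there could not be counted as a loop in these lines, so the sides do not compare the lines. The strongest partner of RAB20 on the right in LS513, at 111266064 to 111270749, held 14 PETs, against 1 in HCT116.

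Over the whole locus LS513 exceeded SW620 2.35-fold (2.06 to 2.68) in loop PETs and 1.98-fold (1.85 to 2.13) in same-anchor PETs. Scaled to chromosome 13 these were 1.43 and 1.07 (0.996 to 1.14). Leaving out anchors that overlap the leading LS513 anchor brought the unscaled ratios to 1.50 (1.25 to 1.80) and 1.44 (1.31 to 1.58). On the chromosome 13 scale both then turned below 1, to 0.916 (0.765 to 1.10) for loops and 0.773 (0.706 to 0.848) for same-anchor PETs. In SW620 that leaves out the wide anchor. At loops whose anchors overlapped one in each of the other libraries, which leaves out the leading anchor in LS513 but not the wide anchor in SW620, LS513 kept 10 PETs and SW620 29, and the ratio turned to 0.258. Of the 13 LS513 anchors 10 overlapped an SW620 anchor by at least 1 bp, and 10 of the 15 SW620 anchors overlapped one of LS513.

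At the left edge SW620 and SW480 had overlapping anchors where LS513 and HCT116 had none. SW620 had an anchor at 110741753 to 110750266 with 60 PETs and SW480 one at 110743605 to 110750391 with 10 PETs. These were 71.0 and 76.6 normalised PETs, and their counting ranges overlapped. They looped out of the locus to 110654382 to 110677696 in SW620 with 7 PETs and to 110660568 to 110674883 in SW480 with 5 PETs, or 45.9 and 360.1 normalised PETs. That loop was the strongest of the locus in SW480. The other named SW480 loops held 1 or 2 PETs. They joined 110771761 to 110780344 with 110660568 to 110674883 (2 PETs) and with 110743605 to 110750391 (1 PET), and 111173995 to 111181131 with 111128515 to 111134614 (2 PETs) and with 111115529 to 111121475 (1 PET). Loops leaving the locus to the left held 10 of the 14 PETs of SW480 and 55 of 289 in SW620, against 28 of 988 in LS513 and 2 of 112 in HCT116.

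Elsewhere SW480 was low. Same-anchor PETs of the locus were 3479 in LS513, 642 in HCT116, 1068 in SW620 and 48 in SW480, or 2509 (2426 to 2594), 744 (687 to 804), 1265 (1189.9 to 1343) and 368 (271 to 488) normalised PETs. The ratio of SW620 to SW480 was 3.44 (2.57 to 4.69) for same-anchor PETs and 1.88 (1.10 to 3.48) for loops. SW480 had a larger share of its loops on chromosome 13, and with chromosome 13 scaling the ratios were 4.42 and 3.58 (2.10 to 6.63). The strongest SW480 anchor, at 111173995 to 111181131, lay left of RAB20 inside the wide SW620 anchor, and held 12 PETs. The next were the left-edge anchor with 10 PETs and 2 anchors, at 110771761 to 110780344 and 111068994 to 111076409, with 7 PETs each. Of the 8 SW480 anchors 7 overlapped an SW620 anchor and 2 overlapped one of LS513. Anchor length differed as well: anchors of the locus covered 117 kb in LS513 and HCT116, 207 kb in SW620 and 49.0 kb in SW480. Per kb of anchor the ratio of SW620 to SW480 turned to 0.813.

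At the authors' deposited FDR under 0.01 the locus kept 38 loops in LS513, 12 in HCT116, 27 in SW620 and 2 in SW480. These were 41.8%, 28.6%, 30% and 25% of its loops, against 18.2%, 12.8%, 17.2% and 14.5% of all loops of the same libraries. The leading loop was listed with an FDR of 0 in LS513 and 9e-14 in HCT116. The median span weighted by PETs was 53.0 kb in LS513, 53.0 kb in HCT116, 95.2 kb in SW620 and 79.3 kb in SW480.

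Among tiles of 800 kb laid from the locus along all chromosomes, the locus ranked 33 of 2442 by loop PETs in LS513, 244 of 2288 in HCT116, 149 of 2397 in SW620 and 308 of 1418 in SW480. On chromosome 13 it ranked 1 of 71 in LS513, 1 of 66 in HCT116, 2 of 66 in SW620 and 11 of 49 in SW480. By the ratio of LS513 to HCT116 it ranked 60 of 1931 tiles for loops and 40 of 2558 for same-anchor PETs. On chromosome 13 these ranks were 13 of 58 and 5 of 75. The median tile of chromosome 13 had ratios of 1.95 and 2.02, against 1.01 and 0.954 over all tiles. The locus was thus among the most contacted of the chromosome in LS513, HCT116 and SW620. By loop ratio of LS513 to HCT116, 12 other tiles of the chromosome stood higher. Several of these rested on few HCT116 PETs, such as 11 in LS513 against 1 in HCT116, a ratio of 4.04 (0.587 to 174), or 19 against 0. The one with most PETs held 562 against 62, a ratio of 3.33 (2.56 to 4.40).

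**Figure D5:**
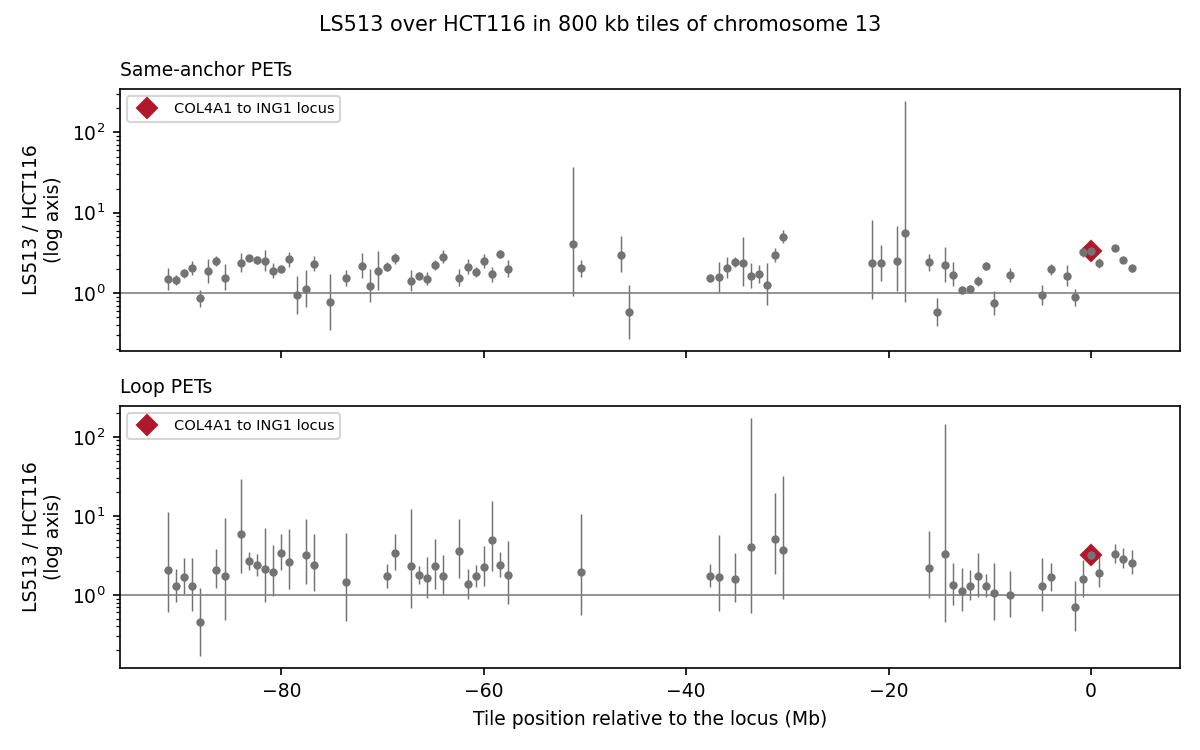
Ratio of LS513 to HCT116 in normalised PETs (log axis) for tiles of 800 kb on chromosome 13 with at least 10 PETs in both libraries together, against tile position relative to the locus in Mb, for same-anchor PETs (top) and loop PETs (bottom). Lines are exact 95% intervals (counting error), and tiles with 0 PETs in either library are not drawn. The locus (red) lies at 3.37 and 3.24, and most tiles lie above 1.

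The bounds of the locus fell in stretches without anchors. In LS513 the anchor just inside the left bound held 25 same-anchor PETs and the one just outside 1, and at the right bound the 2 held 14 and 40. In HCT116 these pairs were 13 and 205, and 6 and 24. The left outside anchor was at 110520520 to 110524378 in LS513 but at 110434691 to 110440994 in HCT116. The values of 1 and 205 thus belong to different anchors and do not compare the lines. The 800 kb tile left of the locus held 1350 same-anchor PETs in LS513 and 260 in HCT116. In SW620 they were 4 and 107, and 28 and 25, and in SW480 10 and 32, and 1 and 2.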

How the data were processed

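H3K27ac HiChIP libraries of LS513, HCT116, SW620 and SW480 (1 each) were used. Per the labels, fixed chromatin was digested with MboI, its ends were biotinylated and ligated, and Tn5 was used to make libraries after H3K27ac immunoprecipitation. HiC-Pro and hg19 (GRCh37) are named per the submitters' processing notes; no loop caller or anchor source is named there. The authors deposited whole-number counts of PETs per anchor pair for same-chromosome, filtered and interchromosomal pairs, and a mango table whose unlabelled eighth column was read as the authors' deposited p-value adjusted to an FDR. Counts were used as deposited, on chromosomes 1 to 22 and X.

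Rates were set per 1000000 PETs of the same kind in the library, with exact Poisson 95% intervals. Ratios had exact conditional (Clopper-Pearson) 95% intervals. Because there was 1 library per line, no test was made, and a call means past 2-fold with at least 10 PETs in both libraries together. A gene start lay at an anchor within 2 kb. The text names, per line, the 5 loops and 3 anchors with most PETs and the 2 loops with most PETs per gene start; further anchors and loops were named after their values were seen. The members and lists were chosen with earlier results of these data known. Alternatives covered scaling, PET and FDR minimums, anchor overlap and margins. The ratio and call code was checked on simulated data. Scripts ran in Python 3.11.15 with scipy 1.17.1, pandas 2.3.3, matplotlib 3.10.9 and numpy 2.4.6. Other collagen IV and basement membrane genes were not analysed here.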

Additional observations from a re-analysis of the deposited data

Results flagged for a closer look

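Pairs between chromosomes enter none of the comparisons above, yet have PETs in the locus above the limit that a count of 0 allows. They held 286 PETs with an end in the locus in LS513, 48 in HCT116, 131 in SW620 and 7 in SW480. Per 100 same-anchor PETs these were 8.22 in LS513, 7.48 in HCT116, 12.3 in SW620 and 14.6 in SW480, against 9.61, 7.10, 13.4 and 6.11 in the libraries as a whole. The SW480 value rests on 7 PETs. No pair of anchors held more than 2 PETs: 286 PETs fell in 284 pairs in LS513, 48 in 47 in HCT116, 131 in 130 in SW620 and 7 in 7 in SW480.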

How the results depend on the processing

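Each alternative was run on 1 library per line. The ratio of LS513 to HCT116 in loop PETs, 3.24 as reported, was 1.48 scaled to chromosome 13, 1.57 to the chromosome outside the locus, 5.14 to all same-chromosome PETs and 2.49 without the leading anchor, or 1.14 with that anchor left out and chromosome 13 scaling together. The same-anchor ratio of 3.37 was 1.53 and 1.58 with the chromosome scalings, 2.17 without the leading anchor, and turned to 0.986 with both together. For LS513 over SW620 the loop ratio of 2.35 was 1.43 and 1.52 with the chromosome scalings, 3.05 with both anchors inside, 2.95 at FDR under 0.01 and 1.50 without the leading anchor, and turned to 0.916 with that and chromosome 13 scaling. It also turned to 0.258 at anchors overlapping in all 4 libraries, where LS513 keeps 10 PETs and SW620 29; the restriction drops the leading anchor. The same-anchor ratio of 1.98 was 1.07 with either chromosome scaling, 3.50 per kb of anchor and 1.44 without the leading anchor, and turned to 0.773 with that and chromosome 13 scaling. For SW620 over SW480 the loop ratio of 1.88 was 3.58, 3.93, 4.49, 3.97 and 3.49 with the chromosome scalings, both anchors inside, anchors in all 4 libraries and all pairs inside; the same-anchor ratio of 3.44 turned to 0.813 per kb, SW480 anchors being shorter. Of 21 loops, the 17 higher in LS513 were 8 with chromosome 13 scaling and 16 with a count of 0 set to 3 counts. At 20 PETs or more 9 of 11 loops were higher. The 0 lower became 1 of 21 with chromosome 13 scaling and 1 of 32 at 5 PETs or more. Of 13 anchors, the 5 higher were 1 with chromosome 13 scaling and 2 past 3-fold, and the 0 lower became 2 with that scaling. Shares over all loops or anchors were counted only at 2-fold and 10 PETs, as given above. Scaled to chromosome 13 at the mean share of the 4 libraries, the RAB20 level was 865 in LS513, 759.7 in HCT116 and 451 in SW620, and that of CARS2 with ING1 was 629, 673 and 512; a 10 kb margin gave 584 at RAB20 in SW620. Another 53 values kept their direction and stayed within their 95% interval or, for counts, near the main count. Many of these could hardly move, so their number is no measure of stability. They include values of 0 at starts without an anchor and start margins that took in the same anchors. They also include the ratio of LS513 to HCT116 per kb of anchor, which is fixed on shared anchors. Leaving out the leading anchor, with or without chromosome scaling, the 3-count setting and counting all pairs inside were chosen after seeing the data. No paired analysis was possible because each line had 1 library. Depth limits SW480 most, where 3 counts are 216 per 1000000 filtered PETs.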
